A study of Mus musculus with 12 samples.

Results

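CT010508.1 and AC116595.1 are annotated mouse miRNAs that carry the name of a sequenced genomic clone in place of a Mir symbol, and Ppargc1b is the gene in which AC116595.1 lies. These 3 features, of 32101 in the table, were chosen by name, and both miRNAs were selected on their read levels in these libraries and, for CT010508.1, on its known fall in Dicer/Dnmt1 KO against Dnmt1 KO. The table held 1573 annotated miRNAs, 1025 of them clone-named. By reads over the 12 libraries CT010508.1 came 2nd among the clone-named miRNAs and 9th among all miRNAs, with 9115 reads. AC116595.1 came 6th and 36th, with 1262 reads, and 969 of the clone-named miRNAs had no read.

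Small RNAs of 20 to 24 nt were sequenced from mouse embryonic stem cells (ESCs), pluripotent cells that divide in culture. The 6 WT libraries were labelled wild type, with replicates 1A, 1B, 2A, 2B, 3A and 3B. The 2 Dnmt1 KO libraries (A and B) lacked Dnmt1, which encodes the enzyme that copies DNA methylation at replication, and the 4 Dicer/Dnmt1 KO libraries, numbered 1 or 2 with a letter, lacked Dicer as well. Dnmt1 loss was therefore shared by both knockout groups, and no group lacked Dicer alone. All libraries were labelled as the E14 background strain, whereas the study's methods describe a floxed Dnmt1 line of another strain as the parent of the knockouts, so line and genotype cannot be told apart in comparisons with WT. The labels give no time after deletion and do not say whether Dicer was deleted conditionally or constitutively. They also do not say what the numbers stand for, or whether A and B were separate cultures. The p-values therefore measure only the spread between these libraries, which may be technical. WT 2A and 2B are titled E14 2 without a genotype in the title.

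miRNAs are cut from hairpin precursors, by Drosha in the nucleus and then by Dicer in the cytoplasm, and 1 strand of the product guides an Argonaute protein to target mRNAs. Bases 2 to 8 of the mature miRNA, the seed, pair with the target. Dicer is therefore needed to mature nearly all miRNAs in mouse cells. Ppargc1b encodes a transcriptional coactivator of genes for mitochondrial function and lipid metabolism.

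Library reads ranged from 8710 in Dicer/Dnmt1 KO 1B to 245184 in WT 1A. The miRNAs of the Mir290 to Mir295 cluster, markers of ESCs, summed to between 65412 and 91543 RPM (reads scaled to the reads of the library) in the WT libraries other than 2A and 2B, to 28125 and 55355 RPM in WT 2A and 2B, and to between 55619 and 99190 RPM in Dnmt1 KO. They summed to between 1201 and 3471 RPM in Dicer/Dnmt1 KO, where these markers depend on the enzyme that was deleted and so do not check the cell type. The markers of the labelled cell type were thus found in WT and Dnmt1 KO. As a share of miRNA reads the cluster was low in WT 2A (4.06%), within the range of Dicer/Dnmt1 KO (1.72% to 4.63%). For 12 miRNAs of differentiated or mesenchymal cells, feeder fibroblasts included, the summed level was 9854 to 15463 RPM over all WT libraries. The study's methods describe culture of ESCs with or without feeders. It was 41284 and 49151 RPM with Dnmt1 lost, and 12561 to 40818 RPM with Dicer lost too. Their share of miRNA reads was 1.81% to 3.55% in WT and 6.33% and 7.86% in Dnmt1 KO. The share reached 17.97% to 42.1% in Dicer/Dnmt1 KO. Of the 5 that were tested, 3 were called higher and 0 lower in Dnmt1 KO against WT, where 6.88% of all tested features were called. In Dicer/Dnmt1 KO against WT 1 was called higher and 0 lower, where 35 and 130 of all 683 tested features were. Against Dnmt1 KO 0 were called higher and 2 lower in Dicer/Dnmt1 KO, where 8 and 148 of the 683 were. Between 3 and 7 of the 12 were at 0 in a library, Mir199a-1, Mirlet7c-1 and Mirlet7c-2 in every one. The part of these markers in the results for CT010508.1 and AC116595.1 was not tested.

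CT010508.1 (ENSMUSG00000092915) is annotated on the minus strand at chr9:108470626-108470745 (NCBIM37), 120 bases that overlap no other annotated gene. Its sequence is shown because the name hides which miRNA the reads can come from. On the plus strand, opposite to the gene model, the interval holds the whole RefSeq hairpin of Mir191 (chr9:108470650-108470723) and both of its mature miRNAs, whose sequences are in capitals in the line for the interval. In the lines for the mature miRNAs, from RefSeq (GRCm38.p6) and matched to NCBIM37 by sequence, capitals mark the seed. All are written 5′ to 3′.
CT010508.1 interval, plus strand: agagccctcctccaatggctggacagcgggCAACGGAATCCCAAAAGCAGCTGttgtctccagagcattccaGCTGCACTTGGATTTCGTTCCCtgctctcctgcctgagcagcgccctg
mmu-miR-191-5p: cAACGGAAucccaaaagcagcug
mmu-miR-191-3p: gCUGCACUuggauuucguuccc
The mature sequences lie at chr9:108470656-108470678 and chr9:108470698-108470719 on the plus strand. No feature of the table is named Mir191. Counting did not separate strands, so reads of either strand of this interval were counted under CT010508.1. Each of the 2 seeds was found in 0 of the other mouse mature miRNAs among 1738 in the RefSeq table.

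The next annotated miRNA is Mir425, 363 bp away on the plus strand (chr9:108471108-108471192). It is shown because it is the only tested feature within 50 kb of CT010508.1. Capitals again mark the seed.
mmu-miR-425-5p: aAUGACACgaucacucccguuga
mmu-miR-425-3p: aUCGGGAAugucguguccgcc
The seed of mmu-miR-425-5p was shared by 1 other mature miRNA, mmu-miR-489-3p, and neither seed equals a miR-191 seed. Of the 8 features within 50 kb of CT010508.1, 4 had at least 10 reads: Mir425 with 166, Qrich1 with 23, Arih2 with 12 and Wdr6 with 11. Dalrd3, which starts 1478 bp away, had 5 reads.

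AC116595.1 (ENSMUSG00000093026) spans 113 bases at chr18:61557467-61557579 (NCBIM37) on the plus strand. It lies inside Ppargc1b (ENSMUSG00000033871, chr18:61457790-61560085, minus strand), in the intron between the first and the next exon, 2364 bp from the exon before it, and it overlaps no Ppargc1b exon. RefSeq on GRCm38.p6 places Mir378a inside Ppargc1b, and whether AC116595.1 holds that hairpin was not analysed here.

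The reads listed for Ppargc1b were those of AC116595.1. Both features had the same count in 9 of 12 libraries, and Ppargc1b had 1 read more in the other 3 (WT 2B, WT 3A and Dnmt1 KO A). In all, 1262 of the 1265 Ppargc1b reads, 99.8%, fell in AC116595.1, which makes up 0.11% of the 102296 bp of the gene. The 2 features are on opposite strands, and each read of the miRNA was counted for both. Values for Ppargc1b are therefore the same observation as those for AC116595.1, and its row gives 3 reads on the gene itself.

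The level of CT010508.1 differed among WT libraries as well as between genotypes. In WT, CT010508.1 had 584, 330, 668, 1718, 151 and 327 reads in 1A to 3B, which is 2382, 2275, 41383, 12254, 2092 and 2272 RPM. In Dnmt1 KO it had 2282 and 2973 reads, or 33718 and 27628 RPM. In Dicer/Dnmt1 KO it had 31, 0, 33 and 18 reads, or 1266, 0, 520 and 119 RPM, where the count of 0 in 1B allows up to 344 RPM. WT 1A, 1B, 3A and 3B lay within a narrow band, both E14 2 libraries stood above them, and WT 2A was above both Dnmt1 KO libraries. Every Dicer/Dnmt1 KO library was below every WT library. Intervals on single libraries are 95% Wilson binomial intervals and cover counting error only, as do limits at 0. The interval of WT 2A was 38418 to 44566 RPM and that of Dicer/Dnmt1 KO 1A, the highest of its group, was 892 to 1796 RPM.

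As group means, CT010508.1 was highest in Dnmt1 KO (30673 ± 4306 RPM, SD, n = 2), then WT (10443 ± 15676 RPM, SD, n = 6), then Dicer/Dnmt1 KO (476 ± 571 RPM, SD, n = 4). The spread of WT was larger than its mean. Dnmt1 KO and WT overlapped through WT 2A. Without E14 2 the WT mean was 2255 ± 120 RPM (SD, n = 4), which was below both Dnmt1 KO libraries and above all Dicer/Dnmt1 KO libraries. The 2 E14 2 libraries had a mean 11.9 times that of the other WT libraries.

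**Figure D1:**
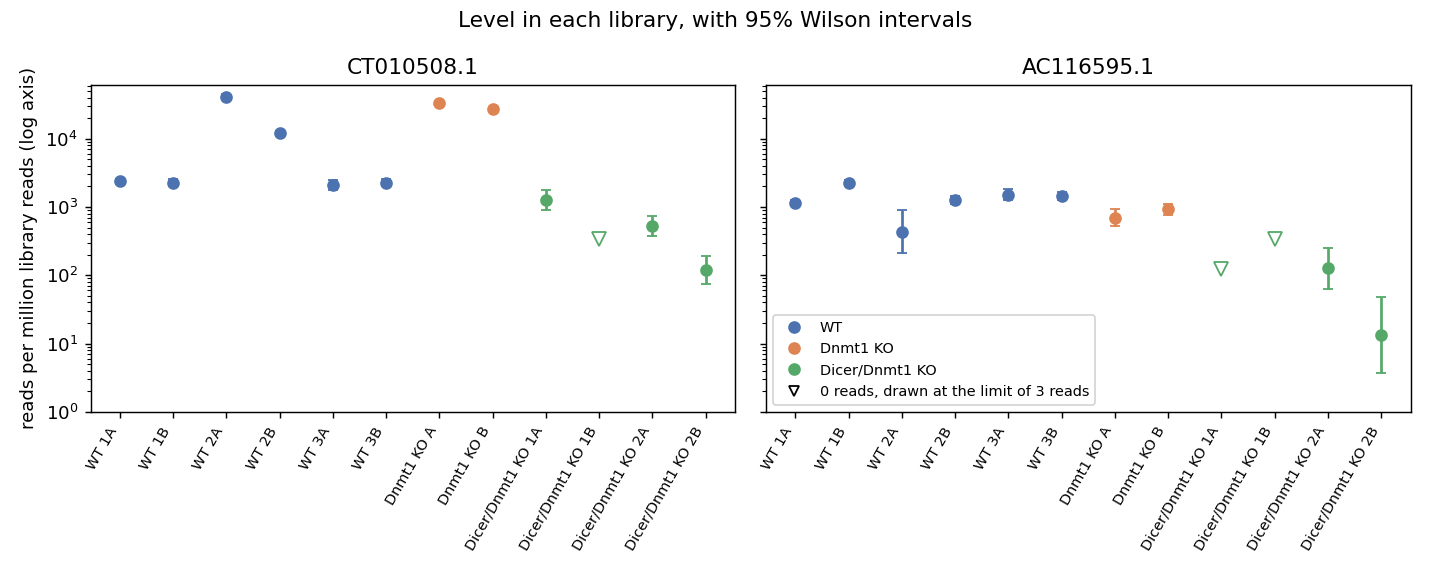
Level of CT010508.1 (left) and AC116595.1 (right) in each of the 12 libraries in RPM on a log axis, coloured by genotype, with 95% Wilson intervals of counting error; open triangles mark 0 reads and stand at the level of 3 reads. CT010508.1 is high in WT 2A, WT 2B and both Dnmt1 KO libraries, while AC116595.1 is not, and both are lowest in Dicer/Dnmt1 KO.

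AC116595.1 was ordered otherwise. Its WT libraries 1A to 3B had 280, 325, 7, 177, 109 and 208 reads, or 1142, 2241, 434, 1262, 1510 and 1445 RPM. Dnmt1 KO had 47 and 99 reads, or 694 and 920 RPM. Dicer/Dnmt1 KO had 0, 0, 8 and 2 reads, or 0, 0, 126 and 13.3 RPM, with limits of 122 and 344 RPM on the counts of 0 in 1A and 1B. The lowest WT library was 2A, which had the highest level of CT010508.1. All Dicer/Dnmt1 KO libraries were below all WT and Dnmt1 KO libraries, and both Dnmt1 KO libraries were below every WT library but 2A. The 7 reads of WT 2A gave an interval of 210 to 895 RPM, which meets the interval of Dicer/Dnmt1 KO 2A (63.9 to 249 RPM). Group means were 1339 ± 586 RPM (SD, n = 6) in WT, 807 ± 159 RPM (SD, n = 2) in Dnmt1 KO and 34.8 ± 61.2 RPM (SD, n = 4) in Dicer/Dnmt1 KO.

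Neither miRNA passed the test in Dnmt1 KO against WT. Fold changes come from limma with a mean-variance trend over the 683 features that passed a filter on low values, are on the log2(RPM + 10) scale, and have Benjamini-Hochberg adjusted p-values over all 683. All 3 features passed the filter. For Dnmt1 KO against WT the log2 fold change of CT010508.1 was 2.81 (SE 1.61, limma adjusted p = 0.388) and that of AC116595.1 was -0.43 (SE 0.72, limma adjusted p = 0.810). None of the 3 features was called, where 6.88% of all tested features were. Their unadjusted p were 0.105 for CT010508.1, 0.564 for AC116595.1 and 0.575 for Ppargc1b. Without the E14 2 libraries the fold of CT010508.1 was 4.06 (limma adjusted p = 0.0413), and with no filter on low values the fold of 2.81 had a limma adjusted p of 0.00351, so this call turned on those choices. CT010508.1 was chosen on its read level in these libraries, and Dnmt1 KO held 5255 of its 9115 reads. Its p-values in this comparison are therefore not independent of that choice. The median fold of the 132 tested miRNAs was 1.40, above AC116595.1 and below CT010508.1.

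AC116595.1 fell in Dicer/Dnmt1 KO against WT, where its fold was -6.08 on the log2 scale (SE 0.57, limma adjusted p = 2.5e-06). It was chosen on its read level in these libraries, where WT held 1106 and Dnmt1 KO 146 of its 1262 reads. The Dicer/Dnmt1 KO libraries alone would not have passed it through the filter. Its p-values against WT and against Dnmt1 KO, also per miRNA read, are therefore not independent of that choice. It was called lower, and with it the Ppargc1b row that holds its reads, beside 19.0% of all tested features and 61.4% of tested miRNAs. The median of the tested miRNAs was -2.79, and 6 of them lay below AC116595.1. Leaving out 1 library gave -6.57 to -5.67. With each count of 0 placed at 3 reads, the fold was -4.26 (limma adjusted p = 1.71e-05).

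For CT010508.1 the fold in this comparison was -5.43 (SE 1.28). It is given without a test, because the Dicer/Dnmt1 KO libraries were known to be low when the miRNA was chosen, and 11 of the tested miRNAs lay below it. The size depended on single libraries and on the count of 0. It was -4.17 without library 1B, -6.22 without 1A and -3.94 without the E14 2 libraries. It was -4.37 with the count of 0 at 3 reads, and -3.67 with each pair of A and B libraries summed.

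Against Dnmt1 KO, AC116595.1 was also lower in Dicer/Dnmt1 KO, with a fold of -5.65 on the log2 scale (SE 0.77, limma adjusted p = 7.92e-05). This was called, beside 21.7% of all tested features and 75.0% of tested miRNAs that were called lower, and the miRNA median was -4.18. With its counts of 0 at 3 reads the fold was -3.84 (limma adjusted p = 0.000579) and with a pseudocount of 50 it was -4.05. The miRNA median above is from the main setting, so these folds are not set against it. For CT010508.1 the fold was -8.24 (SE 1.71), also without a test. With the 0 of library 1B at 3 reads it was -7.18, and without that library -6.98. The comparisons with WT and with Dnmt1 KO share the Dicer/Dnmt1 KO libraries.

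**Figure D2:**
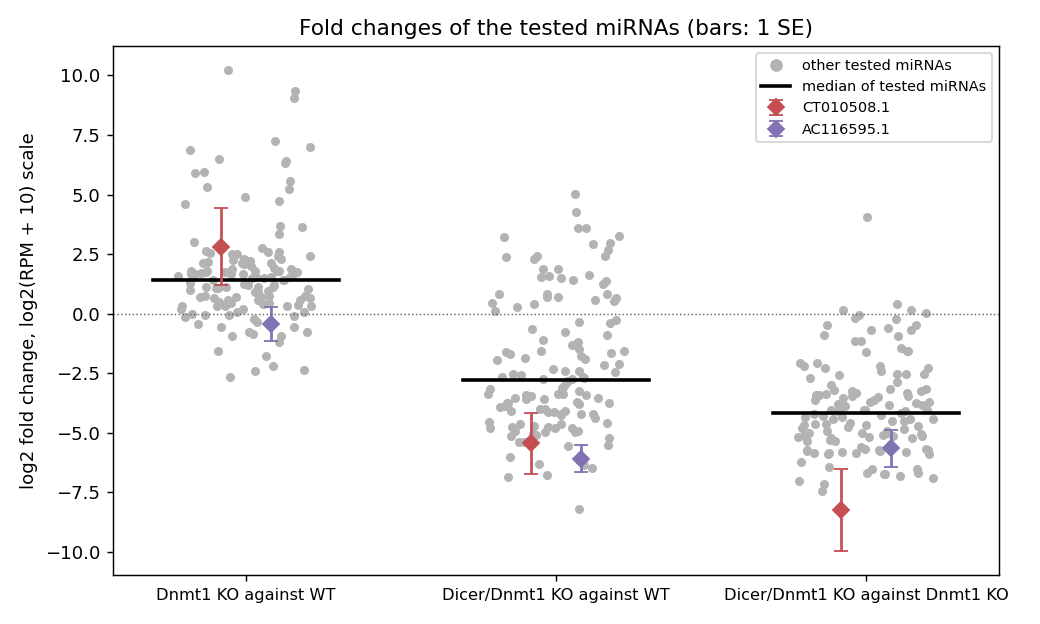
Log2 fold changes on the log2(RPM + 10) scale of the 132 tested miRNAs in the 3 comparisons; grey points are other miRNAs, black lines the medians (1.40, -2.79 and -4.18), and diamonds CT010508.1 and AC116595.1 with bars of 1 SE. Both diamonds lie below the median in both comparisons with Dicer/Dnmt1 KO, and on either side of it for Dnmt1 KO against WT.

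Because miRNAs as a class fell, both were also read as a share of the miRNA reads of the same library, which needs no scaling to other RNA classes. CT010508.1 took 0.823%, 0.592%, 5.97%, 2.42%, 0.581% and 0.632% of miRNA reads in WT 1A to 3B, and 5.17% and 4.42% in Dnmt1 KO. In Dicer/Dnmt1 KO it took 1.11%, 0, 0.536% and 0.171%, with a limit of 0.535% in 1B. The groups overlapped on this measure, since Dicer/Dnmt1 KO 1A, with an interval of 0.782% to 1.57%, was above WT 1A, 1B, 3A and 3B. Its rank among miRNAs ran from 3 to 18 in WT, was 4 and 3 in Dnmt1 KO, and was 14, 27 and 30 in the Dicer/Dnmt1 KO libraries that had reads of it.

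AC116595.1 took 0.395%, 0.583%, 0.0626%, 0.25%, 0.42% and 0.402% of miRNA reads in WT 1A to 3B, and 0.106% and 0.147% in Dnmt1 KO. In Dicer/Dnmt1 KO it took 0, 0, 0.13% and 0.019%, with limits of 0.107% and 0.535% at 0. Dicer/Dnmt1 KO 2A lay between both Dnmt1 KO libraries and above WT 2A, so these groups overlapped too.

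Per miRNA read, AC116595.1 was called lower in Dicer/Dnmt1 KO against WT (log2 fold change -5.35, SE 1.25, limma adjusted p = 0.0026 over 132 miRNAs), beside 37.1% of the tested miRNAs. It was called without library 1A and without 1B (-4.41 in each), and the call was lost when both counts of 0 were placed at 3 reads (-1.40, limma adjusted p = 0.163). Against Dnmt1 KO it was not called (-4.14, SE 1.67, limma adjusted p = 0.0657), where 19.7% of tested miRNAs were called lower, and at 3 reads the fold was -0.19. The folds of CT010508.1 per miRNA read, as a description, were -3.54 (SE 1.54) against WT and -5.57 (SE 2.07) against Dnmt1 KO. They rested on library 1B, without which they were -1.33 and -3.35. With its count of 0 at 3 reads they were -1.28 and -3.31, and with A and B summed -1.03 and -3.15. For Dnmt1 KO against WT neither was called (2.03, limma adjusted p = 0.655, and -1.21, limma adjusted p = 0.781).

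**Figure D3:**
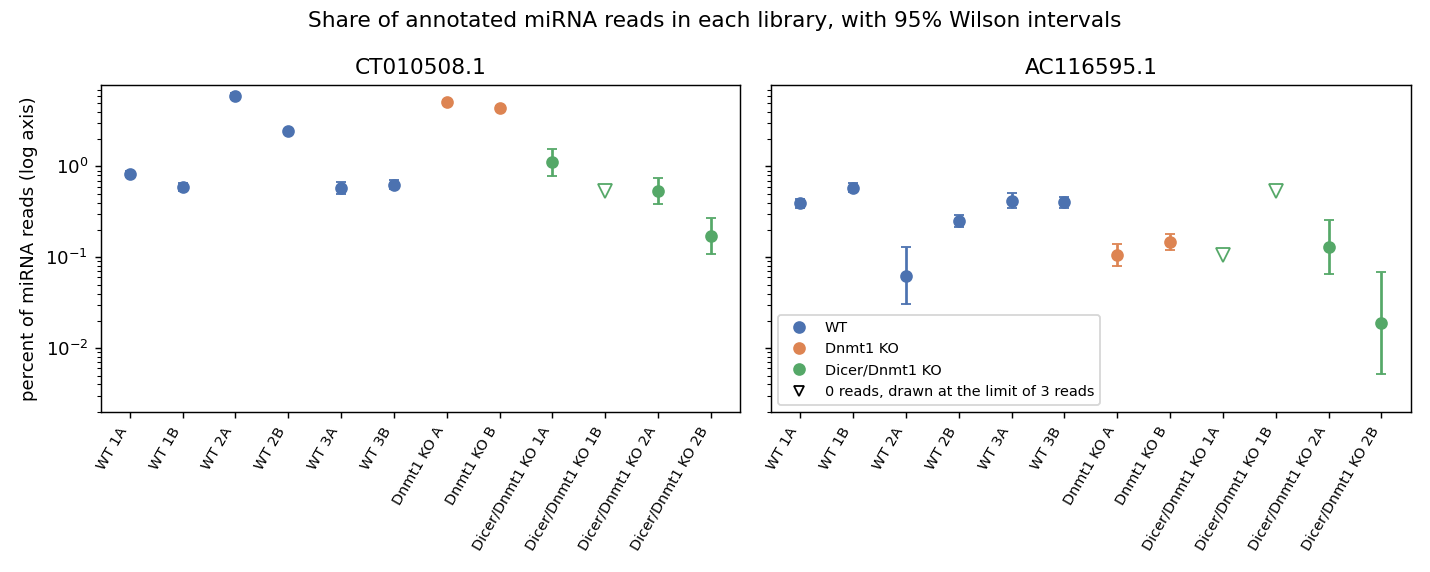
Share of annotated miRNA reads taken by CT010508.1 (left) and AC116595.1 (right) in each library, in percent on a log axis, with 95% Wilson intervals; open triangles mark 0 reads and stand at the share of 3 reads. The share of CT010508.1 in Dicer/Dnmt1 KO 1A, 1.11%, is above those of WT 1A, 1B, 3A and 3B.

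The ratio of both miRNAs within a library, which no scaling can change, separated the libraries in another way. WT 1A, 1B, 3A and 3B held 2.09, 1.02, 1.39 and 1.57 CT010508.1 reads per AC116595.1 read. WT 2A and 2B held 95.4 and 9.71, and Dnmt1 KO A and B held 48.6 and 30.0. In Dicer/Dnmt1 KO the ratio was 4.12 in 2A and 9 in 2B, on 8 and 2 reads of AC116595.1. Both E14 2 libraries were thus above the other WT libraries, 2A above and 2B below Dnmt1 KO. The ESC marker cluster took 4.06% and 10.95% of miRNA reads in E14 2, 8.89% and 15.2% in Dnmt1 KO and 21.3% to 25.4% in the other WT libraries. Its part in the ratio was not tested. WT 2A was also the shallowest WT library, with 16142 reads.

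**Figure D4:**
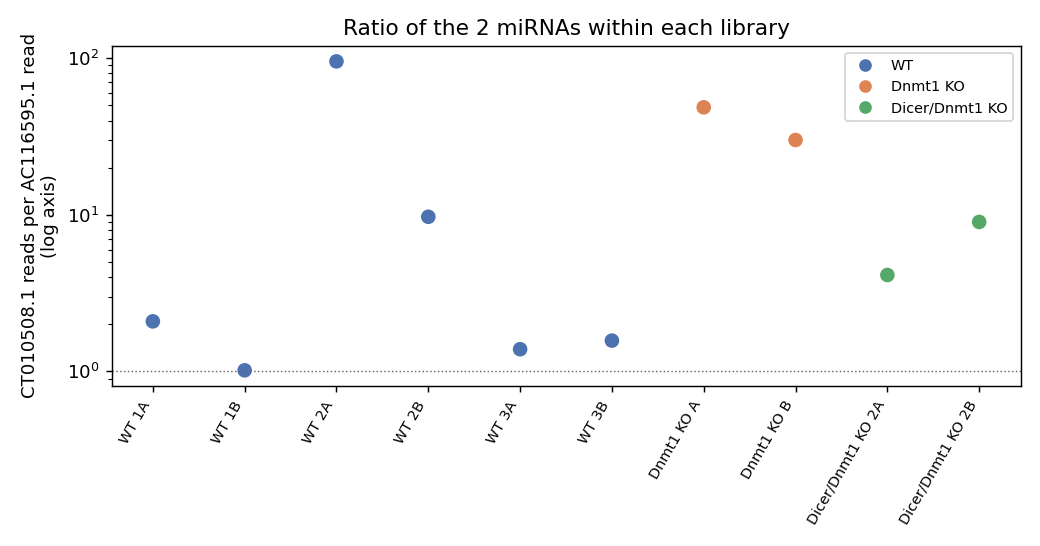
CT010508.1 reads per AC116595.1 read in the 10 libraries in which AC116595.1 had reads, on a log axis, coloured by genotype; the dotted line marks equal reads. The ratio is 1.02 to 2.09 in WT 1A, 1B, 3A and 3B, and at least 9.71 in WT 2A, WT 2B and both Dnmt1 KO libraries.

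Mir425, the neighbour of CT010508.1, had 12, 15, 3, 37, 4 and 11 reads in WT. It had 23 and 59 reads in Dnmt1 KO, against 1, 0, 1 and 0 with Dicer also lost. Its log2 fold change was -3.05 in Dicer/Dnmt1 KO against WT (SE 0.68, limma adjusted p = 0.00376) and -5.18 against Dnmt1 KO (SE 0.92, limma adjusted p = 0.000588). It was lower in both, beside 19.0% and 21.7% of all tested features and 61.4% and 75.0% of tested miRNAs. The Dicer/Dnmt1 KO libraries alone would not have passed Mir425 through the filter. These p-values are therefore not independent of its level in the other groups. In Dnmt1 KO against WT it was not called (2.13, limma adjusted p = 0.204). CT010508.1 had between 22 and 223 reads per Mir425 read where Mir425 was seen, the highest in WT 2A on 3 reads of Mir425.

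The features whose profile over the 12 libraries was most like that of CT010508.1 were Zranb2 (Pearson r = 0.98), Mir186 (0.97), Mir192 (0.96), Fam33a (0.96) and Ptk2 (0.96), of 682 compared. Mir186 lies inside Zranb2, so these are not separate observations. The rows of Fam33a and Ptk2 may also hold reads of miRNAs inside those genes, which was not analysed here. For AC116595.1 they were Mir872 (0.99), its host Ift74 (0.99), Mir106b (0.98), Mir200a (0.97) and Mir294 (0.97), of 681 compared. CT010508.1 and AC116595.1 themselves had r = 0.76. These correlations share the 3 groups and the depth of each library and are a description only. The like features of CT010508.1 were higher on average in Dnmt1 KO than in WT, as Mir192 with 604 RPM in WT and 2065 RPM in Dnmt1 KO. Those of AC116595.1 were nearer to level, as Mir294, a member of the ESC cluster, with 2720 and 2292 RPM.

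Of the 1025 clone-named miRNAs, 56 had a read, 22 had at least 10 and 13 were tested. In Dicer/Dnmt1 KO against WT, 2 of the 13 were past the threshold for lower, beside 19.0% of all tested features and 61.4% of tested miRNAs. The 2 were CT010508.1 and AC116595.1, both chosen on their levels, so the count is a description. CT010508.1 is given no test in this comparison, and it was not past the threshold with A and B summed (-3.67). Past the threshold for higher were 4 of the 13, where 35 of the 683 tested features were. These were AC121784.1, AC165361.1, CT025619.1 and CT009696.2, with 223, 108, 85 and 17 reads. Their WT means were 3.00, 22.7, 18.3 and 0 RPM, so WT alone would not have passed them through the filter. This count is therefore not independent of their levels in the knockouts. AL844840.2, with the most reads of the clone-named miRNAs (12710), had a fold of -1.08 (SE 0.59, limma adjusted p = 0.236), and AC113316.1 (7770 reads) one of 0.66 (SE 0.84, limma adjusted p = 0.684). AC122337.1, whose interval is that of Mir5099, had 0.56 (SE 0.53, limma adjusted p = 0.55). AC121784.1, which like CT010508.1 holds a RefSeq hairpin (Mir409) on the strand opposite to its model, rose in Dnmt1 KO against WT by 6.98 on the log2 scale (SE 0.67, limma adjusted p = 1.81e-05). It passed the filter only through the knockout groups, so this p-value is not independent of its level there. Called higher in this comparison were 3 of the 13, beside 45 of the 683 tested features.

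A hairpin on the other strand was rare among clone-named models. Hairpins were sought by exact match of the whole RefSeq sequence, so none means no exact match. Of the 989 away from chromosome 18, 6 held a RefSeq hairpin on the opposite strand alone, 111 on the same strand alone, 5 on both and 867 held none. Among the 20 of these with at least 10 reads, 3 held one on the opposite strand alone (CT010508.1, AC121784.1 and AC165361.1), 9 on the same strand alone, 1 on both and 7 none. AL844840.2 and AC113316.1, the neighbours of CT010508.1 in the order of reads, held no exact match to a RefSeq hairpin.

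**Figure D5:**
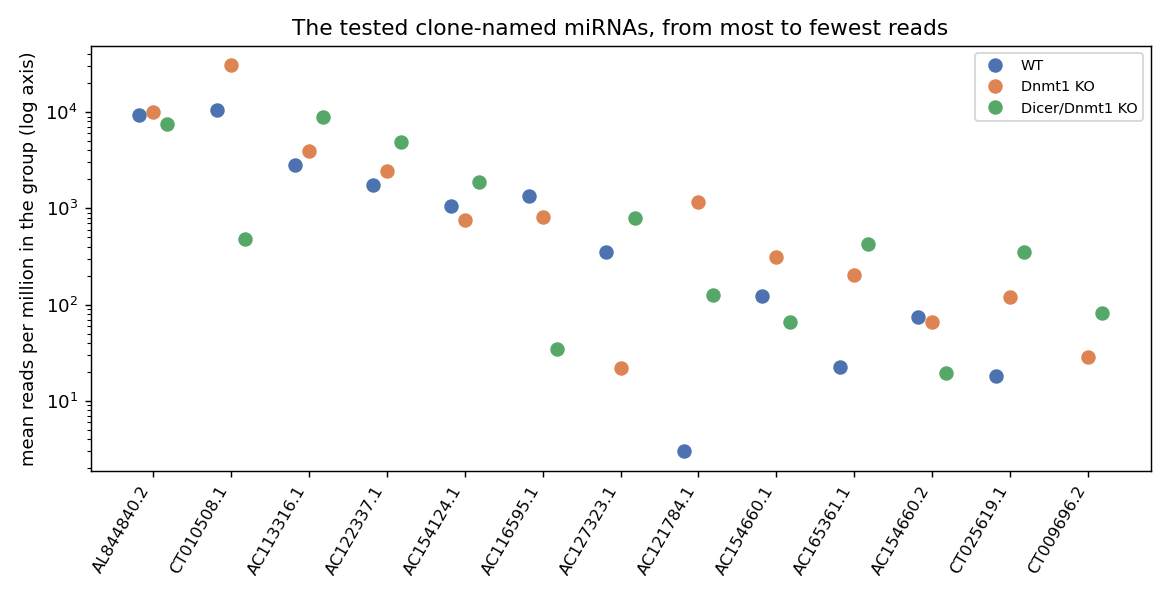
Mean RPM in WT, Dnmt1 KO and Dicer/Dnmt1 KO of the 13 tested clone-named miRNAs, on a log axis, ordered by reads; CT009696.2 had no WT read and has no WT point. CT010508.1 (476 RPM) and AC116595.1 (34.8 RPM) stand well below WT in Dicer/Dnmt1 KO, while AL844840.2, AC113316.1, AC122337.1 and AC154124.1 do not.

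Genes related to Ppargc1b had few reads. Its relatives and partners Ppargc1a, Pprc1, Esrra, Esrrb, Esrrg, Nrf1 and Tfam had 1, 14, 1, 18, 2, 18 and 18 reads over all libraries, and 0 of 7 passed the filter. Of 11 names of miRNA-processing genes, 10 were in the table, with 0 to 30 reads each, and 0 passed the filter. Mir93, a miRNA, fell in Dicer/Dnmt1 KO against WT (-4.76, SE 0.46, limma adjusted p = 3.07e-06), and Snord68, a snoRNA that is not made by Dicer, had -0.13 (SE 0.46, limma adjusted p = 0.89). Dicer1 itself had 9 reads in all, too few to check the knockout in small RNA.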

How the data were processed

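Reads were trimmed by the authors (Trim Galore 0.3.5 in the submitters' processing notes), who kept 20 to 24 nt, mapped reads with Bowtie2 2.2.6 to NCBIM37 and counted overlaps with features in SeqMonk. The deposited values were log2 RPM, with 0 reads written as 0.9 read; whole reads came back for 100% of values, within 0.02 read. The 89 value columns of no sample here were not used. Reads were scaled by TMM and tested as log2(RPM + 10) with limma 3.58.1 (R 4.3.3), in 1 model of 3 groups without covariates. The filter was 111 RPM in 2 libraries and 15 reads in total. TMM factors were first computed over all features with reads; they were changed to the features past the filter after the counts of calls had been seen, and both are given below. The fit was tested on simulated data. Placement of reads with several mapping positions is not given in the sources used here. Members, lists and named features (members, the 5 most similar profiles, neighbours within 50 kb, shared seeds, clone-named miRNAs with at least 10 reads) were chosen with earlier results of these data known. No sequence of chromosome 18 is reported here.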

Additional observations from a re-analysis of the deposited data

Results flagged for a closer look

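WT 2A stood far from the other WT libraries in CT010508.1, at 41383 RPM, with a gap to the next library of 0.741 of the range of the group (critical value 0.625 for 6 libraries). In Dicer/Dnmt1 KO, library 2A stood apart from the other 3 in AC116595.1, at 126 RPM on 8 reads, with a gap of 0.895 of the range (critical value 0.829), and the Ppargc1b value of 126 RPM is the same reads. Chance flags about 1 in 20 groups. Libraries 1A and 1B of that group had no read of AC116595.1, and the limit of 344 RPM in 1B is above the value of 2A.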

How the results depend on the processing

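The scaling reported as the main one was chosen after the data were seen. TMM over all features with reads, which was run before it, called 28 features in Dnmt1 KO against WT in place of 47. In the comparisons of Dicer/Dnmt1 KO with WT and with Dnmt1 KO it called 156 and 147 in place of 165 and 156. It changed no call of AC116595.1 or Ppargc1b, nor that of CT010508.1 in Dnmt1 KO against WT. Placing the counts of 0 at 3 reads was also added after seeing the data, and it ended the call of AC116595.1 per miRNA read against WT (-1.40). In Dnmt1 KO against WT the count of calls was 31 with a pseudocount of 1, 25 with the stricter filter, 80 with voom, 181 without E14 2, 17 with A and B summed, 30 with culture as a random block and 16 to 84 with 1 library left out (84 without WT 2A, 19 and 16 without Dnmt1 KO A and B). The stricter filter, which tests fewer features, left 85 and 88 calls in the other 2 comparisons. The block named culture was each A and B pair of a group, with Dnmt1 KO A and B as 1 pair. That name is not from the labels, which do not say whether A and B were separate cultures. CT010508.1 passed in Dnmt1 KO against WT with no filter (2.81) and without E14 2 (4.06), in tests that are not independent of how it was chosen. In Dicer/Dnmt1 KO against WT its fold is a description, and it was -3.67 with A and B summed. Per miRNA read its fold in that comparison, also a description, was -2.96 with a pseudocount of 50. It was -4.70 without Dicer/Dnmt1 KO 1A and -4.35 without 2A, in a range of -4.70 to -1.33 with 1 library left out. AC116595.1 per miRNA read passed against Dnmt1 KO without Dicer/Dnmt1 KO 2A (-5.54), in a range of -5.54 to -3.19. No value reversed in the alternatives run. The causes were not tested. Library reads alone moved the median of all features by up to 0.91 (log2), and the share of calls that were higher from 21.2% to 42% in Dicer/Dnmt1 KO against WT and from 5.13% to 15.9% against Dnmt1 KO. Without E14 2 these were 31.3% and 30.8%, and in Dnmt1 KO against WT 53.0% in place of 95.7%. The replicate numbers did not pair WT and Dicer/Dnmt1 KO libraries (correlations of -0.23, 0.11, -0.17 and -0.28). The replicate block gave 132 calls, -5.98 for CT010508.1 and -6.00 for AC116595.1 against WT, with AC116595.1 again called. Depth limits the Dicer/Dnmt1 KO libraries most, where 1 read in 1B is worth 115 RPM.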
